A study of Mus musculus with 4 samples.

Results

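Capillary endothelial cells are the cells that line the smallest blood vessels of skeletal muscle. They were chosen by measured UMIs (unique molecular identifiers, each counted as 1 captured mRNA molecule) of named genes in single cells. A cell passed the quality limits with at least 1000 UMIs, at least 500 genes and at most 15% of its UMIs from mitochondrial genes. It was endothelial when Pecam1, Cdh5, Kdr and Egfl7 together gave at least 3 UMIs, and capillary when Gpihbp1, Timp4 and Car4 together also gave at least 3. Cells were left out above 1 UMI of the other-cell genes Ptprc, Csf1r, Pdgfra and Rgs5 together, above 1 UMI of the venous genes Selp, Ackr1 and Vwf, above 1 UMI of the arterial genes Sema3g, Gja5 and Stmn2, or with any UMI of the lymphatic gene Prox1. In all, 1939 of 28163 cells met the rule.

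A muscle capillary is a tube of flat endothelial cells wrapped in a basement membrane, a thin sheet of collagen IV, laminins, nidogens and perlecan that the cells largely make themselves. Muscle capillaries are continuous and specialised for feeding fibres: GPIHBP1 holds lipoprotein lipase at the vessel wall, CD36 and fatty acid binding proteins carry the released fatty acids, aquaporin 1 lets water through, and caveolae crowd the membrane. When capillaries sprout or remodel, their cells loosen this sheet and lay down new matrix, and genes such as Apln, Aplnr, Angpt2, Esm1 and Mcam mark that state.

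The series holds 4 libraries of mononuclear cells, cryopreserved, thawed and run on droplets that tag the 3′ end of each mRNA. They came from quadriceps, a limb muscle, and diaphragm, the breathing muscle, of mice that were either wild-type (WT) or mdx5cv. The mdx5cv mice carry a mutation of the dystrophin gene Dmd and model Duchenne muscular dystrophy. All mice were 14 weeks old. Each combination of genotype and muscle is 1 library, and the number of animals behind it is not stated in the labels. With 1 library per group no difference between groups can be tested. The intervals of levels, ratios and shares given below are exact 95% intervals that cover counting error only. They leave out the spread between animals, preparations and cells. Intervals of list medians are of another kind: they are rank-based over the member genes and show the spread among those genes. Member genes are not replicates, so these intervals do not measure the spread between animals either. The 3′ tags of Dmd do not read the mutation, so they do not check the genotype labels: in capillary cells Dmd stood at 48.96 CPM in WT quadriceps, 37.6 CPM in WT diaphragm, 48.4 CPM in mdx5cv quadriceps and 44.9 CPM in mdx5cv diaphragm. All lists of 4 values below keep that order. CPM stands for counts per 1000000, here the UMIs of a gene scaled to that total of UMIs in the capillary cells of a library.

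The quality limits kept 4911, 7516, 8334 and 7402 cells, of which 1519, 23, 216 and 181 were capillary. These held 2777578, 53240, 578245 and 557027 UMIs in all, so the WT diaphragm values rest on very few molecules. The median capillary cell carried 1595, 1892, 2193 and 2325 UMIs, below the median of all cells in each library (2055, 4355.5, 5328.5 and 4894.5). Its mitochondrial share was 6.50%, 12.3%, 5.75% and 7.27%. No barcode was that of a capillary cell in 2 libraries. Of the WT quadriceps capillary barcodes, 3, 5 and 4 were also those of other cells in WT diaphragm, mdx5cv quadriceps and mdx5cv diaphragm, as was 1 mdx5cv quadriceps barcode in mdx5cv diaphragm.

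The genes of the rule describe the cells and are given without any comparison. Gpihbp1 stood at 1834, 1389.9, 1739.7 and 1679 CPM, Kdr, the main VEGF receptor, at 1424, 1108, 1548 and 1323 CPM, and Cdh5, the endothelial cadherin, at 1853, 1427, 2272 and 1513 CPM. Timp4 stood at 2287, 657, 863 and 463 CPM and Car4 at 412, 301, 275 and 343 CPM. All 5 markers were present in every library, though not in every cell, with Car4 seen in 45.0%, 30.4%, 46.3% and 56.4% of the selected cells. The median sum of the 3 capillary genes was 7, 5, 6 and 6 UMIs. Just inside the threshold, at a sum of 3, lay 169, 7, 20 and 31 of the selected cells, and just outside, at a sum of 2 with every other limit met, lay 143, 5, 26 and 40 cells. Genes outside the rule were also those of muscle capillaries. Cd36 was detected in 97.2%, 95.7%, 98.1% and 96.7% of the cells and Fabp4, the fatty acid binding protein of capillaries, in 100%, 95.7%, 100% and 100%.

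Capillary cells made up 30.9% (29.6 to 32.2) of the cells of WT quadriceps, 0.306% (0.194 to 0.459) of WT diaphragm, 2.59% (2.26 to 2.96) of mdx5cv quadriceps and 2.45% (2.11 to 2.82) of mdx5cv diaphragm. WT quadriceps was the highest by far and WT diaphragm the lowest, while the intervals of both mdx5cv muscles overlapped. As a share of endothelial cells they made up 66.3%, 25.3%, 54.1% and 47.8%, and 58.9%, 25.4%, 32.9% and 29.6% with every cell thinned to 1000 UMIs. Thinned in the same way before the rule was applied, the shares of all cells were 27.2%, 0.213%, 1.58% and 1.30%, in the same order of libraries. These are shares of dissociated, frozen and thawed cells, and how many vessels a muscle held cannot be told apart from how many of their cells survived the preparation.

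**Figure D1:**
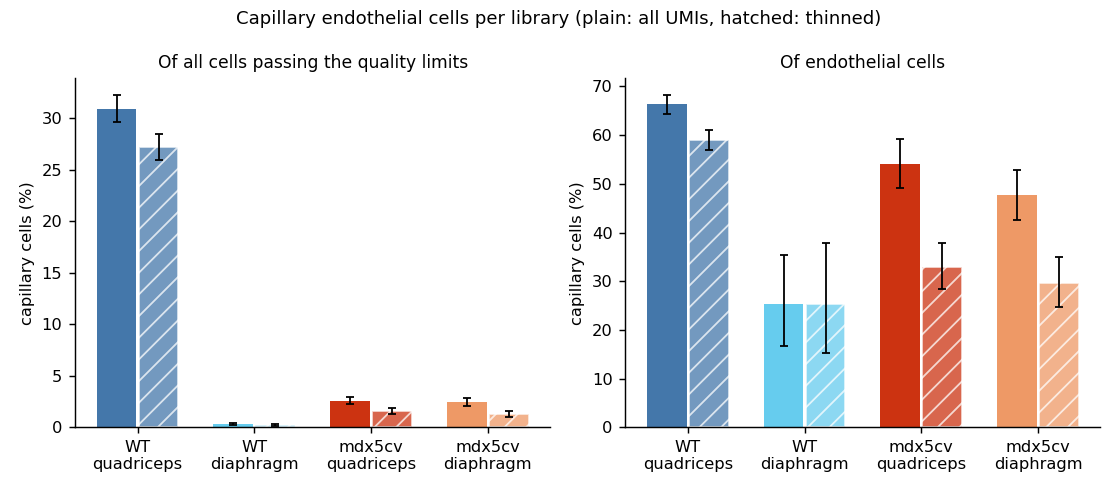
Share of capillary cells among all cells that passed the quality limits, and among endothelial cells, in each of the 4 libraries, in percent, from all UMIs (plain bars) and with each cell thinned to 1000 UMIs (hatched bars), with exact 95% intervals for counting error as black lines. WT quadriceps stands at 30.9% of all cells and the other libraries at 2.59% or less.

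RNA of other cells was present and differed between libraries. The 12 fibroblast markers summed to 2003.9, 10124, 1143 and 3109 CPM, and 1 cell gave 66.8% of that sum in WT diaphragm. The 14 macrophage and monocyte markers summed to 151, 93.9, 879 and 267 CPM, with Aif1 at 0 in WT quadriceps and 10 of the 14 at 0 in WT diaphragm. The 11 pericyte and smooth muscle markers summed to 148, 1540.2, 24.2 and 50.3 CPM, and the 5 erythroid markers to 13.7, 0, 745 and 26.9 CPM, all of the mdx5cv quadriceps value coming from 1 cell. Against WT quadriceps, mdx5cv quadriceps capillary cells thus carried more macrophage RNA and less fibroblast and pericyte RNA. Lymphocyte, muscle fibre, muscle stem cell, Schwann and lymphatic markers each summed to at most 164 CPM in any library. The part of other cells in the results below was not tested beyond the values given. Scaled to the fibroblast markers, the profile of near-empty droplets accounted for an estimated 17.6%, 23.3%, 7.01% and 10.998% of the capillary UMIs. This was the higher of 2 estimates in each library. The other, from the macrophage and monocyte markers, was at most 5.17% in any library. The richest cell held 7.89%, 66.8%, 49.3% and 39.5% of the fibroblast marker UMIs, so the higher estimates rest in part on single cells. Free RNA shares of single genes below use these higher estimates and are best read as upper values.

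The comparison of mdx5cv with WT quadriceps asked how capillary cells differ in dystrophic limb muscle. A gene was tested when it reached 20 CPM and 10 UMIs in 1 of the libraries, and was called higher or lower when the libraries differed at least 1.5-fold with an interval that excluded 1. Of 6974 genes tested, 1140 (16.3%) were higher in mdx5cv and 526 (7.54%) were lower. The median gene stood 0.16 higher on the log2 scale, and dividing all ratios by that median gave 724 higher and 839 lower, so the balance of directions depends on the scaling. Capillary cells of mdx5cv quadriceps carried a gene programme richer in basement membrane and sprouting genes and poorer in heat shock and immediate-early genes.

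Basement membrane genes were often higher and never lower. Of 22 tested, 12 were higher in mdx5cv quadriceps and none was lower, against 16.3% and 7.54% of all genes, and their median log2 difference was 0.63 (0.06 to 1.23) against 0.16 for all genes. Col15a1 encodes a collagen that links the basement membrane to the fibres around it. It stood at 52.6, 131, 593 and 623 CPM, and was 11.3-fold (9.27 to 13.8) higher in mdx5cv than in WT quadriceps. Both mdx5cv libraries were high and both WT libraries low. In the diaphragm, where the WT value is 7 UMIs, the ratio was 4.74 (2.28 to 11.9). Col4a1 and Col4a2 encode the chains of the main collagen IV of vessels. Col4a1 stood at 912, 939.1, 3259.9 and 2494 CPM, 3.57-fold (3.36 to 3.79) higher in mdx5cv quadriceps. Col4a2 stood at 648, 733, 1518 and 1203 CPM, 2.34-fold (2.16 to 2.54) higher. Again both mdx5cv muscles lay above both WT muscles.

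The promoter windows of these 2 genes are shown because they are transcribed away from each other out of 1 shared stretch of DNA and moved together here. Col4a1 lies at chr8:11198423-11312826 on the minus strand and Col4a2 at chr8:11312805-11449287 on the plus strand (GRCm38). Their annotated starts are 21 bases apart, and the RefSeq windows (GRCm38.p6, 250 bases before to 50 after each start, printed 5′ to 3′ on the gene's strand) overlap by 78 bases. Capitals mark the letters CCCTCCCC and CCAAT on either strand.
Col4a1, chr8:11312777-11313076, minus strand: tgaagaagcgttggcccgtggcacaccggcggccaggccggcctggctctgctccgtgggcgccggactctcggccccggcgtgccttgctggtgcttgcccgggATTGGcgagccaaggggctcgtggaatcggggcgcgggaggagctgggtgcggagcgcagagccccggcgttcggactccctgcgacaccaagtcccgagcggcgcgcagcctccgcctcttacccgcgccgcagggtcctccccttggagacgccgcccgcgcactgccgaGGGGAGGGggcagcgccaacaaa
Col4a2, chr8:11312555-11312854, plus strand: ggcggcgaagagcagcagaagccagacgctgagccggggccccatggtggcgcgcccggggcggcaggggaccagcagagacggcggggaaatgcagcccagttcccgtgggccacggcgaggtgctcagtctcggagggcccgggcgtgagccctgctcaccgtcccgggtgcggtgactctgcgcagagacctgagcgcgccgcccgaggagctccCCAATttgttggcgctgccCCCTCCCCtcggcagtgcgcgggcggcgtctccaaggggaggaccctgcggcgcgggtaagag
The single CCCTCCCC match of each window is 1 and the same site, chr8:11312792-11312799, while the CCAAT matches are separate sites, 145 bases before the Col4a1 start and 32 before the Col4a2 start. CCCTCCCC was found in the windows of 12.0% and CCAAT in those of 41.1% of the 27025 genes in the table. Of the 12 higher basement membrane genes 9 have a window, and 4 of them hold CCCTCCCC and 6 hold CCAAT. Of the tested genes of the list that were not called 7 have a window, and 2 hold CCCTCCCC and 1 holds CCAAT. A match describes letters and says nothing of what bound there.

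Other parts of the sheet were higher in part. Among the laminin chains, Lamb1 stood at 34.2, 113, 131 and 228 CPM (3.84-fold higher, 2.80 to 5.25) and Lamc1 at 156, 225, 259 and 163 CPM (1.66-fold, 1.37 to 2.003). The chains Lama4, at 319, 394, 316 and 339 CPM, Lama5 and Lamb2 were not called. The nidogens, which bridge laminin and collagen IV, were both higher: Nid1 at 199, 207, 382 and 271 CPM and Nid2 at 20.2, 37.6, 53.6 and 115 CPM. Perlecan (Hspg2) stood at 544, 507, 972 and 849 CPM, 1.79-fold (1.62 to 1.97) higher. Sparc, a collagen-binding matrix protein, stood at 2609, 2648, 4842 and 4980 CPM, 1.86-fold (1.78 to 1.94) higher. Its relative Sparcl1 did not share this and stood at 2028, 2029, 1703 and 1722 CPM. Pxdn, the peroxidase that cross-links collagen IV, was 1.59-fold (1.35 to 1.87) higher. Of the receptors that hold cells to the sheet, Itga6 was 1.51-fold (1.38 to 1.66) higher, whereas Itgb1 at 507, 451, 529 and 510 CPM, Itga1, Bcam and Dag1 were not called.

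**Figure D2:**
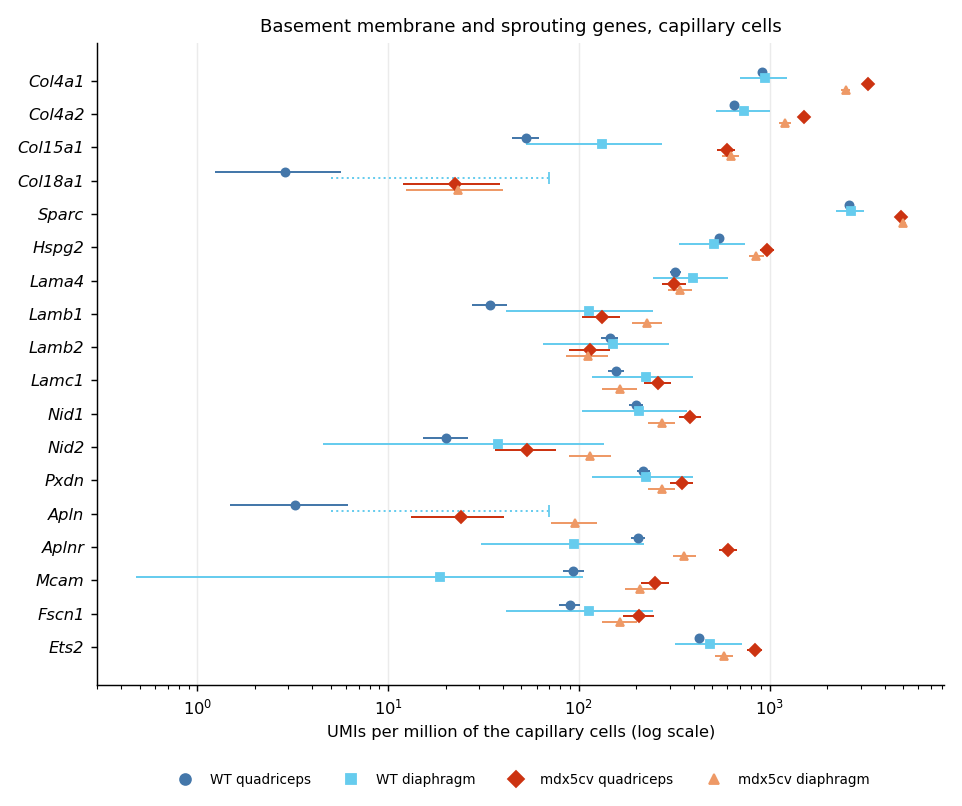
Levels of basement membrane and sprouting genes in the capillary cells of each library, in CPM on a log axis. Points are libraries, lines exact 95% intervals for counting error, and dotted lines end at the upper limit of a library with 0 UMIs. For Col15a1 the WT libraries sit at 52.6 and 131 CPM and the mdx5cv libraries at 593 and 623 CPM.

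The shift was spread over the cells rather than held by a few. With every cell thinned to 1000 UMIs, the median cell held 10, 10, 17 and 14 basement membrane UMIs, and the middle 50% of cells ran from 7 to 13 in WT quadriceps and from 13 to 20 in mdx5cv quadriceps. The single richest cell held 3.34% of the mdx5cv quadriceps UMIs of Col4a1 and 4.66% of those of Col15a1. At 1000 UMIs, Col15a1 was detected in 3.95% (3.03 to 5.06), 8.70%, 33.8% (27.5 to 40.5) and 30.9% of capillary cells, and without thinning in 6.39%, 17.4%, 48.6% and 51.9%. In fibroblasts, which make this collagen in every library, the shares at 1000 UMIs were 40.5%, 49.4%, 48.1% and 61.4%. Fibroblasts had median depths of 3747, 4853.5, 6133 and 5706 UMIs, against the capillary medians given above. In quadriceps fibroblasts Col15a1 stood at 707 CPM in WT and 699.7 in mdx5cv, a ratio of 0.989 with an interval that includes 1 (0.922 to 1.06). Free RNA was estimated to give 1.60% of the Col15a1 UMIs of mdx5cv quadriceps capillary cells.

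**Figure D3:**
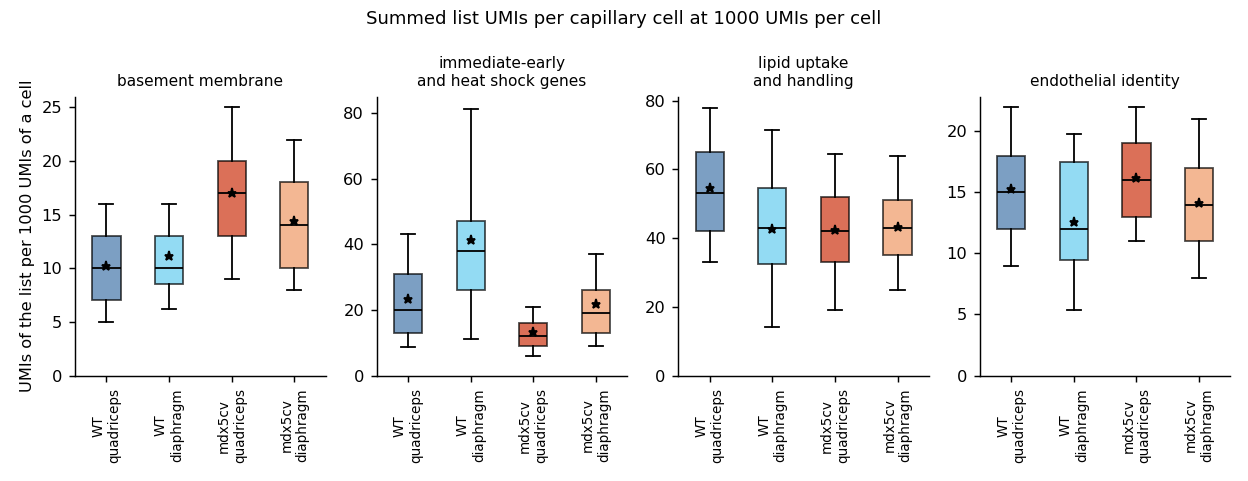
UMIs of gene lists per capillary cell after thinning every cell to 1000 UMIs, for each library. Boxes span the middle 50% of the cells of a library with a line at the median, whiskers run from the 10% to the 90% point, stars are means, and cells are not replicates. The median cell held 10 basement membrane UMIs in WT quadriceps and 17 in mdx5cv quadriceps, and 20 and 12 immediate-early and heat shock UMIs.

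Genes of sprouting and tip cells, the cells that lead a new vessel, were mostly higher in mdx5cv quadriceps. Of 21 tested, 12 were higher and 2 lower, against 16.3% and 7.54% of all genes, with a median log2 difference of 0.96 (0.27 to 1.41) against 0.16. Lamb1, Nid1 and Nid2 belong to both lists. Aplnr, the apelin receptor, stood at 204, 93.9, 605 and 357 CPM, 2.97-fold (2.59 to 3.3998) higher. Apln, its ligand and a tip cell gene, stood at 3.24, 0, 24.2 and 95.1 CPM, from 9, 0, 14 and 53 UMIs. Its ratio was 7.47 (3.01 to 19.6) and it rested on few molecules, 28.6% of the mdx5cv quadriceps ones in 1 cell. Mcam (CD146), an adhesion molecule of growing vessels, stood at 93.6, 18.8, 251 and 210 CPM, 2.68-fold (2.17 to 3.29) higher. Trp53i11 stood at 102, 113, 265 and 194 CPM, and Fscn1, which bundles actin in filopodia, at 89.6, 113, 206 and 163 CPM. Ets2, a transcription factor, was 1.95-fold (1.75 to 2.17) higher. Chst1, Ramp3 and Lxn, each below 60 CPM, were also higher.

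Other sprouting genes did not follow. Angpt2, which destabilises vessels, stood at 36.4, 56.3, 34.6 and 43.1 CPM, Dll4, the Notch ligand of tip cells, at 91.1, 75.1, 119 and 82.6 CPM, and Pdgfb, which recruits pericytes, at 392, 244, 432 and 447 CPM. None of these was called, nor were Cxcr4, Plaur, Unc5b and Ets1. Adm and Igfbp3 were lower, Igfbp3 at 258, 207, 152 and 108 CPM (1.69-fold lower, 1.36 to 2.14). Esm1 was too sparse to test: at 1000 UMIs it was seen in 1.38%, 0%, 0% and 3.31% of capillary cells (1.78%, 0%, 0% and 5.52% without thinning), and in 0%, 0.0358%, 0.149% and 0.0916% of fibroblasts. For 0 of 216 cells the exact interval allows up to 1.69%. Sprouting genes were thus only in part higher. Proliferation was near the limit of detection, with Mki67 at 1000 UMIs in 0, 0, 1 and 0 capillary cells (0%, 0%, 0.926% and 0.552% of cells without thinning). In fibroblasts at 1000 UMIs the Mki67 shares were 0%, 0.143%, 1.64% and 0.0916%.

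The receptors through which these signals act were mostly level. Of 13 tested genes of the VEGF and angiopoietin pathway, 2 were higher and none lower, near the share among all genes. Flt1, the VEGF trap receptor, stood at 1816, 1296, 1686 and 1445 CPM, Tek at 318, 319, 308 and 275 CPM and Tie1 at 299, 263, 358 and 275 CPM, none of them called. Nrp2, a co-receptor for VEGF and semaphorins, was 2.31-fold (1.97 to 2.72) higher, at 169, 131, 391 and 368 CPM. Pgf, the second called gene, came from 14 UMIs in mdx5cv quadriceps, 64.3% of them in 1 cell. In the BMP and TGF-beta pathway 6 of 22 tested genes were higher and 1 was lower, against 16.3% and 7.54% of all genes. Smad1, which carries the BMP signal, stood at 136, 93.9, 382 and 181 CPM (2.80-fold, 2.36 to 3.32), Smad5 was 1.90-fold (1.51 to 2.38) higher and the receptor Tgfbr2 2.17-fold (1.67 to 2.80) higher. Their target genes did not share this: Id1 stood at 369, 469.6, 358 and 512 CPM and was not called, and Id3 stood at 1242, 1427, 840.5 and 1099 CPM, also not called. Bmp6 was the lower gene, at 208, 56.3, 119 and 48.5 CPM. Bmp2 rose from 1 UMI in WT to 26 in mdx5cv quadriceps, 34.6% of them in 1 cell.

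Csf2rb, the shared receptor chain for GM-CSF, interleukin 3 and interleukin 5, gave 8, 0, 76 and 14 UMIs, or 2.88, 0, 131 and 25.1 CPM. It was 45.6-fold (22.02 to 110) higher in mdx5cv than in WT quadriceps, and mdx5cv quadriceps stood apart from all other libraries. At 1000 UMIs it was detected in 0.329%, 0%, 7.87% (4.65 to 12.3) and 1.66% of capillary cells (0.461%, 0%, 16.2% and 6.08% unthinned) and in 0%, 0%, 0.448% and 0.183% of fibroblasts. Free RNA was estimated to give 1.96% of the 76 UMIs. Venous cells also carried the gene, at 129 CPM in WT and 639 CPM in mdx5cv quadriceps, above the capillary values. Il4ra, the interleukin 4 receptor chain, stood at 32.0, 0, 156 and 73.6 CPM, 4.86-fold (3.58 to 6.59) higher. Il4ra was also higher in mdx5cv quadriceps in venous cells, 7.98-fold (2.86 to 27.5), and in fibroblasts, 4.06-fold (2.64 to 6.56). Cysltr1, a leukotriene receptor, stood at 5.76, 0, 62.3 and 66.4 CPM, 10.8-fold (5.85 to 20.9) higher, and was 2.16-fold (1.36 to 3.43) higher in venous cells. In arterial cells the intervals of both genes include 1. The TNF receptors Tnfrsf1a and Tnfrsf1b and the oncostatin M receptor Osmr were 1.92-fold (1.54 to 2.38), 2.48-fold (1.54 to 3.93) and 1.57-fold (1.24 to 1.96) higher. Macrophage markers moved the same way in these libraries. Leaving out every cell with over 2 UMIs of other-cell markers ended the call of none of Csf2rb, Il4ra and Cysltr1.

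The other genes among the 15 with the best supported rise had varied roles. Vim, the intermediate filament of mesenchymal and endothelial cells, stood at 350, 845, 1243 and 2079 CPM, 3.55-fold (3.22 to 3.92) higher. Actn1, which cross-links actin, stood at 65.9, 37.6, 244 and 113 CPM, 3.701-fold (2.95 to 4.64) higher. Synpo, an actin-associated protein, was 10.1-fold (6.35 to 16.5) and Mmp14, a membrane-bound protease of collagen, 16.4-fold (8.46 to 34.3) higher, at 4.32, 0, 70.9 and 34.1 CPM. Sema3f, a secreted ligand of neuropilin 2, was 4.57-fold (3.15 to 6.64) higher, and Pkig, a protein kinase A inhibitor, 4.90-fold (3.24 to 7.42). Nav3, Prnd and Ifi204 complete the set at 5.91-fold, 6.84-fold and 4.68-fold. Thinning all cells to 1000 UMIs left few molecules and ended the calls of Mmp14, Prnd, Nav3 and Sema3f. The log2 difference was then 3.34 (-0.45 to 7.12) for Mmp14, still large but with an interval that includes 0, 1.75 for Prnd, 1.13 for Sema3f and 0.43 for Nav3.

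Genes linked with mesenchymal transition gave a mixed picture. Of 22 tested, 11 were higher and 6 lower, against 16.3% and 7.54% of all genes, and the interval of the median log2 difference of 0.75 includes 0 (-0.75 to 1.44). S100a6 stood at 1783, 3043, 3749 and 3538 CPM, 2.10-fold (1.998 to 2.21) higher, and Lgals1 at 161, 432, 370.1 and 551 CPM, 2.30-fold (1.94 to 2.71). In contrast several other higher members were each concentrated in 1 cell. The richest cell for each gene held 80.2% of the Mgp, 68.6% of the Postn, 65.1% of the Lgals3 and 58.8% of the Col5a2 UMIs of mdx5cv quadriceps. Whether it was the same cell for these genes was not examined. Lower members included Ccn1, at 394, 526, 197 and 208 CPM, and Fn1, at 127, 207, 48.4 and 57.4 CPM, with 73.0% of the Fn1 of WT quadriceps estimated as free RNA. The median fell to -0.20 when cells were thinned, to 0.12 when cells with any other-cell UMI were left out and to -0.66 at a mitochondrial limit of 5%.

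Capillary cells of mdx5cv quadriceps also carried more of the genes that are usual in veins, beyond those the rule excluded. Of 14 such genes tested, 9 were higher and none lower, against 16.3% and 7.54% of all genes. Their median log2 difference was 0.79 (0.19 to 1.26) against 0.16 for all genes. It fell to 0.15 with cells thinned to 1000 UMIs and the rule applied again, which left 1334 WT and 132 mdx5cv quadriceps cells. The median of all genes at that depth is not given here. Tmem252 stood at 6.12, 0, 57.1 and 5.39 CPM, 9.32-fold (5.05 to 17.8) higher. Nr2f2, the transcription factor of venous identity, stood at 30.6, 0, 58.8 and 23.3 CPM (1.92-fold, 1.25 to 2.89), and Ephb4, the venous ephrin receptor, at 104, 131, 163 and 109.5 CPM (1.56-fold, 1.22 to 1.97). Genes usual in arteries moved in both directions, 4 of 15 higher and 6 lower. Rbp7, a retinol-binding protein that is most abundant in arterial cells (2320 CPM in WT quadriceps arterial cells), stood at 345, 488, 91.7 and 237 CPM. It was 3.77-fold (2.86 to 5.07) lower, and the log2 difference was -0.60 at 1000 UMIs per cell. Rbp7 was also lower in quadriceps arterial cells of mdx5cv, at 733 CPM, 3.16-fold (2.42 to 4.21) below WT. Cxcl12 stood at 1600.3, 2348, 1006 and 1509.8 CPM, 1.59-fold (1.46 to 1.74) lower, and Edn1, endothelin 1, at 36.003, 169, 15.6 and 53.9 CPM, 2.31-fold (1.17 to 5.21) lower.

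Among molecules that capture white blood cells, 6 of 15 tested were higher and 1 was lower, against 16.3% and 7.54% of all genes. Cd34 stood at 358, 263, 925 and 725 CPM, 2.59-fold (2.32 to 2.87) higher, and Podxl, its relative on the cell surface, at 771, 507, 1160.4 and 826 CPM, 1.505-fold (1.38 to 1.64). Both belong to the glycoprotein coat of capillaries. Icam1, at 26.6, 244, 57.1 and 104 CPM, and Vcam1, at 16.6, 18.8, 39.8 and 34.1 CPM, were called higher on few molecules. The richest cell for each gene held 24.2% and 34.8% of the mdx5cv quadriceps UMIs. Icam1 was highest in WT diaphragm, on 13 UMIs. No capillary cell of any library had a Sele UMI at 1000 UMIs. Emcn, a sialomucin that covers capillaries and veins, was the lower gene, at 1084, 620, 692 and 828 CPM (1.57-fold lower, 1.41 to 1.74). Icam2, F11r, Jam2, Jam3, Cd47 and Cd38 had ratios between 0.742 and 0.814 and were not called.

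Most genes of fatty acid transport were not called in either direction. Of 19 tested genes of lipid uptake 3 were higher and 2 lower, near the 16.3% and 7.54% of all genes, with a median log2 difference of 0.03. At 1000 UMIs the median capillary cell held 53, 43, 42 and 43 UMIs of the list, highest in WT quadriceps. Cd36, the fatty acid transporter, stood at 2766, 1878, 2822 and 1973 CPM, with a quadriceps ratio of 1.02 (0.967 to 1.08). Lpl stood at 794, 770.1, 904 and 693 CPM and Mgll at 556, 676, 662 and 668 CPM. Fabp4, the most abundant of these mRNAs, stood at 39043, 23929, 27575 and 29528 CPM, and its ratio was 0.706 (0.695 to 0.718). Meox2 and Tcf15 form a transcription factor pair that drives these genes in muscle capillaries: Meox2 was level at 249, 207, 244 and 197 CPM, whereas Tcf15 stood at 634, 282, 287 and 319.6 CPM and was 2.21-fold lower. Tcf15 was high in WT quadriceps alone, and at 1000 UMIs it was seen in 46.3%, 26.1%, 26.4% and 25.4% of capillary cells (62.6%, 43.5%, 47.7% and 54.7% unthinned) and in at most 0.838% of fibroblasts. Aqp7, a glycerol channel, was also lower, at 536, 131, 316 and 260.3 CPM. Scarb1, a lipoprotein receptor, was 1.69-fold (1.46 to 1.94) higher, at 279, 207, 470.4 and 242 CPM, and Rxra and Nr1h2 were the other higher genes.

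Of 11 tested genes of caveolae and vesicle transport 4 were higher and 2 lower, against 16.3% and 7.54% of all genes. Their median log2 difference was 0.42 (-0.60 to 1.07). The coat-forming caveolins were lower, Cav1 at 3693, 2122, 2440.1 and 1912 CPM (1.51-fold lower, 1.43 to 1.60) and Cav2 at 1214, 695, 643 and 433 CPM (1.89-fold, 1.69 to 2.11). The cavins, which stabilise the same pits, were not: Cavin1 stood at 1109, 902, 1722 and 982 CPM and was 1.55-fold (1.45 to 1.67) higher, and Cavin2 and Cavin3 were not called. The other higher genes were Ehd4, Plvap and Rab5c, by 2.04-fold, 2.26-fold and 2.11-fold. Of 12 transporters of solutes tested, 2 were higher and 2 lower, the lower ones being the nucleoside carrier Slc28a2, at 609.9, 301, 261 and 228 CPM, and the drug exporter Abcg2, at 425, 188, 213 and 199 CPM. Glycolysis genes gave 6 of 18 higher and 1 lower, among them Hk1, Pfkl, Pfkp and Pkm. Of 30 tested genes of oxidative phosphorylation none was higher and 1, Ndufa4, was lower, and of 11 tested genes of fatty acid oxidation none was called.

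The group that was lower in mdx5cv quadriceps was that of heat shock and immediate-early genes, which answer to heat, cell handling and fresh signals within minutes to hours. Of 39 tested, 19 were lower and 4 higher, against 7.54% and 16.3% of all genes, with a median log2 difference of -0.59 (-0.75 to -0.26). Hspb1, a small chaperone, stood at 4396, 4752, 1498 and 2652 CPM, 2.94-fold (2.74 to 3.15) lower. The inducible chaperones Hspa1a, at 1976, 5579, 631 and 2005 CPM, and Hspa1b, at 3312, 7551, 1477 and 3702 CPM, were 3.13-fold (2.81 to 3.49) and 2.24-fold (2.09 to 2.41) lower. They are near-identical copies, so how reads were split between them is uncertain. For all 3 chaperones WT diaphragm was the highest library and mdx5cv quadriceps the lowest. Dnajb1, Hsph1 and Hsp90aa1, their helpers, were 2.99-fold, 2.09-fold and 2.24-fold lower.

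The promoter windows of the chaperones are shown because the heat shock factor binds inverted GAA repeats that can be read from their letters. The windows are from RefSeq (GRCm38.p6), 250 bases before to 50 after the start, 5′ to 3′ on the gene's strand, and capitals mark GAANNTTC or TTCNNGAA on either strand.
Hspb1, chr5:135887669-135887968, plus strand: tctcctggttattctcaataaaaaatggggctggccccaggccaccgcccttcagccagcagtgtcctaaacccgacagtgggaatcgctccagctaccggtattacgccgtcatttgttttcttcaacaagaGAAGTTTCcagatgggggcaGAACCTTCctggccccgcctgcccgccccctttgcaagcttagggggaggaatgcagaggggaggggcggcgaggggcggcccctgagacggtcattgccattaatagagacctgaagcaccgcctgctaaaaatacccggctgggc
Hspa1b, chr17:34959189-34959488, minus strand: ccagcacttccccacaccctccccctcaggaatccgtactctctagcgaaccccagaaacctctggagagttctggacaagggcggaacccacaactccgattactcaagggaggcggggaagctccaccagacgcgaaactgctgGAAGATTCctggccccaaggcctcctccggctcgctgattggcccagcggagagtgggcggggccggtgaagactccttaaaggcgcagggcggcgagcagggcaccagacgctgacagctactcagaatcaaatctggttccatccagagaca
Hspb1 holds 2 matches, starting 117 and 97 bases before its start, and Hspa1b 1, starting 104 bases before. The Hspa1a window, chr17:34972107-34972406 on the minus strand, differs from that of Hspa1b at 4 bases and holds the match at the same place. Of the 19 lower genes of the list 15 have a window in the table, and 6 of them hold such a repeat. The near-identical Hspa1a and Hspa1b are counted separately among these 6. Of its 4 higher genes, 3 have a window and 1 holds one. Of its 16 tested genes that were not called, 14 have a window and 2 hold one. Among all 27025 genes with a window 17.0% hold one.

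Several immediate-early transcription factors were lower as well, and others were higher. Jun stood at 917, 1559, 403 and 515 CPM (2.27-fold lower, 1.99 to 2.61), Jund at 1135, 3080.4, 522 and 1065 CPM and Nr4a1 at 100.4, 188, 27.7 and 59.2 CPM. Fos stood at 241, 1165, 86.5 and 323 CPM, but free RNA was estimated to give 44.8% of its UMIs in WT quadriceps. Egr1, Ier2, Btg2, Dusp1, Junb and Atf3 were lower by 1.52-fold to 1.98-fold. The 4 higher genes were Fosl2, Ier5, Btg1 and Myc, Fosl2 at 37.4, 18.8, 107 and 59.2 CPM. At 1000 UMIs the median capillary cell held 20, 38, 12 and 19 UMIs of the list. Quadriceps fibroblasts showed a median log2 difference of -0.81 for the same list. The mitochondrial share was highest in WT diaphragm and lowest in mdx5cv quadriceps, the same ends as for the chaperones. The part of cell quality in these levels was not tested.

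**Figure D4:**
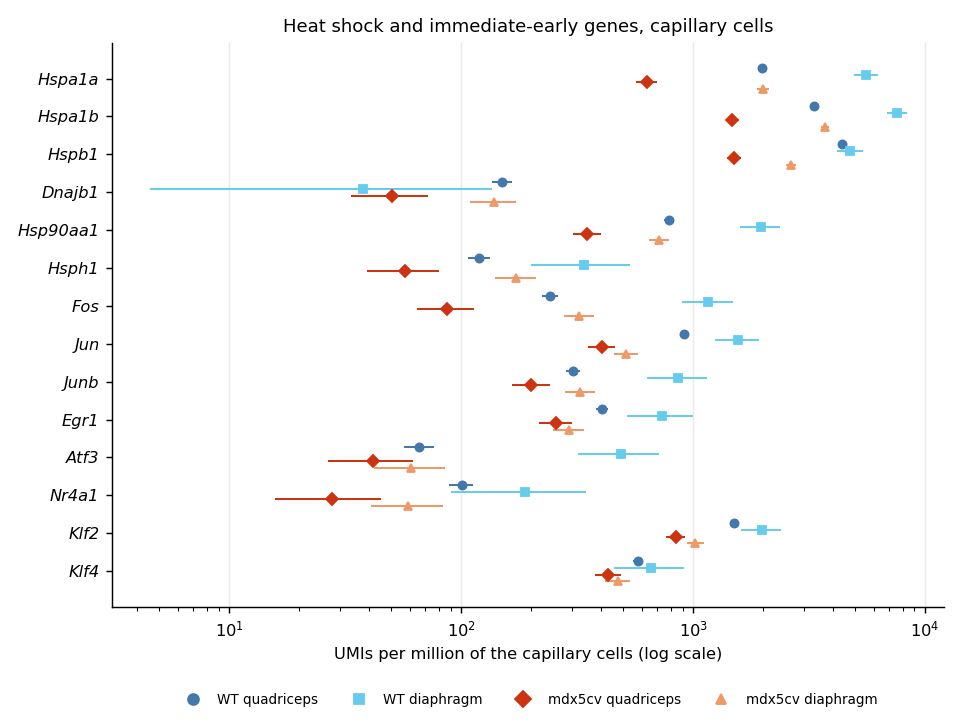
Levels of heat shock and immediate-early genes in the capillary cells of each library, in CPM on a log axis, with exact 95% intervals for counting error. Hspb1 stands at 4396 and 4752 CPM in the WT libraries and at 1498 and 2652 CPM in the mdx5cv libraries.

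Flow and hormone responsive genes included further lower members. Klf2, the transcription factor induced by blood flow, stood at 1497, 1972, 840.5 and 1021 CPM, 1.78-fold (1.62 to 1.96) lower. Its relative Klf4 and its target Nos3, at 135, 131, 187 and 156 CPM, were not called. Txnip, a brake on glucose uptake, stood at 1209, 958, 713 and 566 CPM, 1.70-fold lower. Of 12 tested genes of the glucocorticoid and metal response 4 were lower and 3 higher, against 7.54% and 16.3% of all genes. Among the lower genes were Tsc22d3, at 310.3, 244, 147 and 138 CPM (2.11-fold, 1.69 to 2.67), and Cdkn1a, at 279.7, 319, 130 and 176 CPM. The metal genes Mt1 and Mt2 were higher, but the richest cell for each gene held 85.6% and 82.9% of the mdx5cv quadriceps UMIs.

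Interferon-induced genes did not move as a group. Of 37 tested, 9 were higher and 4 lower, against 16.3% and 7.54% of all genes. Their median log2 difference was 0.24 against 0.16 for all genes. Higher ones included Isg15, at 125, 75.1, 189 and 142 CPM (1.51-fold, 1.21 to 1.88), Oasl2, at 50.8, 0, 109 and 80.8 CPM (2.15-fold, 1.57 to 2.91), Ifi44, Ifih1 and Stat2. Lower ones were Ifi35, Gbp5 and the abundant surface genes Ly6a, at 4012, 2198, 2592 and 2879.6 CPM, and Ly6c1, at 5363, 2310.3, 3459 and 3154 CPM, both 1.55-fold lower. Rsad2, Iigp1 and Bst2, at 604, 619.8, 604 and 596 CPM, were not called. MHC class I genes gave 3 of 20 higher and 1 lower. All 4 tested MHC class II genes were higher, but the free RNA estimate reached its cap of 100% for each. The richest cell for each gene held 41.0% to 61.7% of its UMIs.

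The remaining lower genes among the 15 with the best supported fall had varied roles. Sp110, a nuclear body protein, gave 143, 1, 0 and 0 UMIs. With its 0 counts in mdx5cv quadriceps set to the floor of 3 counts it was 9.92-fold lower. The exact interval of the ratio reaches down to 7.97-fold. Arterial, venous and fibroblast cells of mdx5cv quadriceps stood at 0, 0 and 0.185 CPM of Sp110, against 54.1, 79.8 and 31.9 CPM in WT quadriceps, so the gene was near 0 across these cell types. Gng11, a G protein subunit, stood at 4958, 2554, 2326 and 2364 CPM, 2.13-fold (2.02 to 2.26) lower, and Tcim at 1396, 864, 557 and 700.1 CPM, 2.51-fold (2.24 to 2.82) lower. Sult1a1, a sulfotransferase, stood at 621, 263, 240.4 and 154 CPM, 2.58-fold (2.17 to 3.09) lower. For each of Gng11, Tcim and Sult1a1 WT quadriceps was the highest library, and WT diaphragm lay between it and both mdx5cv libraries. Erh, Chek2, a kinase of the DNA damage response, Hprt, an enzyme of purine salvage, Ptprr, a tyrosine phosphatase, Tmem182 and Gstp1, which has a near-identical neighbour, were 2.89-fold to 4.28-fold lower. Thinning ended the call of Tmem182, with a log2 difference of -0.12.

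Genes of endothelial identity and of the dystrophin complex were mostly level. Of 30 identity genes 3 were higher, Cd93, Mmrn2 and Rasip1, and 1 lower, Emcn, against 16.3% and 7.54% of all genes. Their median log2 difference was 0.12. Cldn5, the tight junction protein, stood at 255, 244, 355 and 348 CPM and was not called, and of 17 junction genes 3 were higher and none lower. In the Notch pathway 3 of 15 genes were higher, among them Notch4 at 82.4, 93.9, 142 and 136 CPM, and 1, Hey1, was lower. Coagulation genes gave 2 of 14 in each direction, cytokine and chemokine genes 6 of 18 higher and 3 lower, and cell cycle genes 3 of 8 higher and 1 lower. In the dystrophin complex 1 of 6 tested genes, Sgcb, was higher, and Utrn, the relative of dystrophin, stood at 381, 357, 346 and 257 CPM, a quadriceps ratio of 0.908 (0.777 to 1.06).

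Arterial cells (168 in WT and 29 in mdx5cv quadriceps), venous cells (77 and 26) and fibroblasts (358 and 670) from the same libraries were set beside the capillary cells. The median log2 difference of the basement membrane list was 0.63 in capillary, 0.54 in arterial and 0.52 in venous cells, and -0.0035 in fibroblasts. Col4a1 was higher in mdx5cv in all 3 kinds of endothelial cell, by 3.57-fold, 3.67-fold and 4.34-fold, and 1.28-fold (1.21 to 1.35) in fibroblasts. For sprouting genes the medians were 0.96, 0.51, 1.03 and 0.20, and for heat shock and immediate-early genes -0.59, -0.22, -0.31 and -0.81. For interferon-induced genes they were 0.24, -0.54, 0.07 and 0.51, and for the venous genes 0.79, -0.19, -0.11 and 0.77. No test of these differences between cell kinds is possible with 1 library per group.

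**Figure D5:**
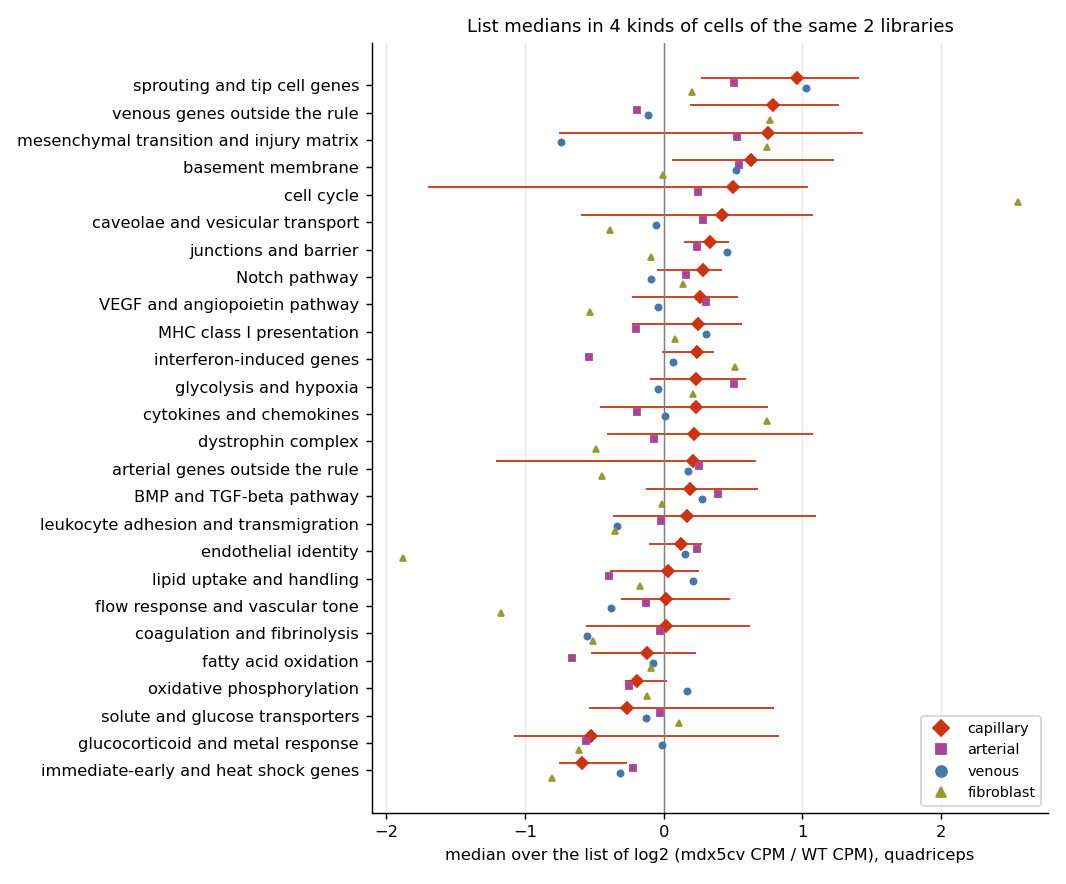
Median log2 difference between mdx5cv and WT quadriceps for gene lists with at least 5 tested genes in capillary, arterial and venous cells and fibroblasts. Lines mark the rank-based interval of the capillary median over member genes, and equal levels lie at 0. The basement membrane list stands at 0.63, 0.54, 0.52 and -0.0035 in these cells.

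The second comparison set mdx5cv diaphragm beside mdx5cv quadriceps, and it shares the mdx5cv quadriceps library with the first. Of 7002 genes tested, 291 (4.16%) were higher and 665 (9.5%) lower in diaphragm. The median log2 difference was -0.13, and dividing by the median gene gave 474 higher and 413 lower. Macrophage markers were lower in diaphragm (9 of 11 tested) and fibroblast markers higher (10 of 11). Of 22 tested basement membrane genes 3 were higher and 3 lower, against 4.16% and 9.5% of all genes. Their median log2 difference was -0.12 against -0.13 for all genes. Lamb1 and Nid2 were higher in diaphragm, by 1.73-fold (1.30 to 2.34) and 2.14-fold (1.38 to 3.41), whereas Col4a1 and Col15a1, at ratios of 0.765 (0.713 to 0.820) and 1.05 (0.902 to 1.22), were not called. Lama5 and Lamc1 were lower.

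Heat shock and immediate-early genes gave 14 of 39 higher and 4 lower in mdx5cv diaphragm, against 4.16% and 9.5% of all genes. Their median log2 difference was 0.53. Hspa1a and Hspa1b were 3.18-fold (2.82 to 3.59) and 2.51-fold (2.31 to 2.72) higher. Junction genes gave none of 17 higher and 7 lower, against the same shares of all genes, with a median of -0.52. Afdn, the junction scaffold afadin, stood at 1022, 451, 1069 and 578 CPM, Gja1, a gap junction protein, at 209.5, 263, 282 and 133 CPM, and Jup, plakoglobin, at 424, 432, 536 and 341 CPM. For Afdn both diaphragm libraries lay below both quadriceps libraries. Aqp1 had the same split by muscle. It stood at 5421, 2949, 4142 and 1535 CPM and was 2.70-fold (2.49 to 2.92) lower in mdx5cv diaphragm than in mdx5cv quadriceps. Cd36 had a ratio of 0.699 (0.647 to 0.755) and was not called.

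Single genes with the best supported lower level in mdx5cv diaphragm included Sox18, a transcription factor of vessel growth, at 412, 319, 531 and 162 CPM (3.29-fold, 2.59 to 4.20). Shank3, a scaffold protein, at 131, 150.3, 213 and 46.7 CPM, and Tgfbr3, a TGF-beta co-receptor, at 95.8, 56.3, 154 and 35.9 CPM, were 4.56-fold (2.97 to 7.25) and 4.29-fold (2.62 to 7.35) lower. Irgm1, an interferon-induced GTPase, Cyp26b1, an enzyme that breaks down retinoic acid, Csf2rb and Tmem252 completed the set at 5.42-fold, 4.08-fold, 5.23-fold and 10.6-fold lower. Genes with a higher level included Btnl9, at 95.8, 37.6, 72.6 and 246 CPM (3.39-fold, 2.38 to 4.91), and Depp1, a target of FOXO factors, at 165, 225, 105 and 309 CPM (2.93-fold, 2.17 to 3.99). Apln was 3.93-fold (2.15 to 7.67) higher, but leaving out cells with over 2 UMIs of other-cell markers turned its log2 difference to -0.03. Phlda1 was 4.82-fold (2.68 to 9.30) higher, and leaving out the deepest 5% of cells ended its call. All 30 mdx5cv diaphragm UMIs of Apol7c came from 1 cell, and all 28 of Gal came from 1 cell.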

How the data were processed

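Single-cell RNA-seq of mononuclear cells was analysed in 4 libraries, 1 per group. The deposited files hold UMI counts per gene and cell that the authors made with Cell Ranger 5.0.0 on mm10, per the submitters' processing notes, whereas a header line in the matrices gives version 4. Which gene annotation lay behind the counts is not stated in the sources used. The counts carry no normalization.

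Cells with at least 1000 UMIs, 500 genes and at most 15% mitochondrial UMIs were kept and capillary cells were taken by the sums of marker UMIs given above. No doublet caller was run, and the rule's exclusion sums stood in for one. The members and lists were chosen with earlier results of these data known. UMIs were summed over the capillary cells of a library and scaled to CPM. Ratios carry exact conditional 95% intervals, and shares exact Clopper-Pearson intervals, all for counting error only. The interval of a list median is taken from the ranked values of its member genes, as if these were independent. Genes with at least 20 CPM and 10 UMIs in 1 library were tested, leaving out the 18 genes of the rule, and a call needed a 1.5-fold difference with an interval excluding 1. Against a library with 0 counts the fold was set by a floor of 3 counts. Named genes were, among called genes with at least 50 CPM and at most 20% estimated free RNA in the higher library, the 15 with the most extreme interval bound nearest 1 in each direction (8 for the mdx5cv muscles). Mitochondrial, ribosomal, haemoglobin, predicted and sex-linked marker genes, rule genes and markers of other cells were left out of that choice. Members of the gene lists could be named besides. There were 36 lists, 9 of them of other cells, and 6 list genes without a single match were left out. Free RNA was estimated from barcodes with 10 to 100 UMIs. The choice of the higher estimate, the fibroblast comparator (at least 3 Pdgfra UMIs), the genes examined at equal depth and the alternative without cells of over 2 other-cell UMIs were made after seeing the data. Gene positions are from GENCODE M21 (GRCm38) for 700 of 700 genes, and RefSeq promoter windows (GRCm38.p6) were found for 524. The scripts were tested on simulated data and used Python 3.11.15, numpy 2.4.6, scipy 1.17.1, pandas 2.3.3 and matplotlib 3.10.9. Alternatives changed the UMI, mitochondrial, marker and low-count limits, the scaling, the weighting of cells and the depth. For thinned log2 differences, calls and counts of called genes, the rule was applied again to the thinned cells, so fewer cells entered. Thinned shares of cells with a UMI of a gene, and list UMIs per cell, used all capillary cells.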

Additional observations from a re-analysis of the deposited data

Results flagged for a closer look

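Only the 700 list and named genes were searched for opposite calls in the 2 muscles, not all tested genes. For 3 of them the mdx5cv to WT ratio of capillary cells lay above 1 in quadriceps and below 1 in diaphragm, with both called. The ratio of Shank3 was 1.62 in quadriceps and 0.311 in diaphragm. The ratio of Icam1 was 2.14 in quadriceps and 0.426 in diaphragm. The ratio of Mt1 was 2.88 in quadriceps and 0.158 in diaphragm, with 85.6% of the mdx5cv quadriceps UMIs of Mt1 in 1 cell. The difference between the muscles was not tested, since each group is 1 library, and the WT diaphragm values rest on 23 cells.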

How the results depend on the processing

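Of 614 recomputed list medians 598 stayed within the interval of the value reported, as did 470 of 548 recomputed values of named genes. List intervals span the member genes and many are wide, so staying within them shows little. The quadriceps mesenchymal median went from 0.75 to -0.66 and stayed within its interval (-0.75 to 1.44). When thinned to 1000 UMIs, 22 recomputed values of named genes left their intervals and 23 stayed. The quadriceps median of basement membrane genes ranged from 0.47 to 0.74, that of sprouting genes from 0.60 to 1.06 and that of immediate-early and heat shock genes from -0.75 to -0.46. No paired analysis was possible because each group is 1 library, and for the same reason no replicate could be left out. In the order used above, capillary shares were 15.5%, 0.159%, 1.79% and 1.70% at 2000 UMIs, and 24.2%, 0.160%, 1.93% and 1.64% at a marker sum of 5. They were 23.6%, 0.0623% and 1.29% for WT quadriceps, WT diaphragm and mdx5cv diaphragm at a mitochondrial limit of 5%, 24.1% and 2.14% for the quadriceps of WT and mdx5cv without other-cell UMIs, and 27.2%, 1.58% and 1.30% for WT quadriceps and both mdx5cv muscles when thinned to 1000 UMIs. Quadriceps counts became 747 higher at the 5% limit, 500 higher and 242 lower when thinned, 724 and 839 when recentred, and 367 and 212 at 100 CPM and 30 UMIs. Counts between the mdx5cv muscles became 338 lower at the 5% limit, 97 higher and 177 lower when thinned, 474 and 413 when recentred, and 102 and 273 at 100 CPM and 30 UMIs. Fewer UMIs or fewer genes enter the thinned and stricter counts by construction. Quadriceps list medians moved to -0.12 for interferon genes (5% limit), -0.64 for fatty acid oxidation and 0.15 for venous genes (thinned) and -0.35 for oxidative phosphorylation (recentred). Between the mdx5cv muscles, interferon genes moved to -0.47 at 2000 UMIs, 0.0633 when thinned, -0.11 with cells weighted equally and 3.409e-05 without cells of over 2 other-cell UMIs, an alternative chosen after seeing the data that also gave Apln -0.0317. Mesenchymal genes moved to 0.90 (5% limit), -0.47 (thinned), -0.12 (equal weights) and -0.25 (without the deepest 5% of cells), and cell cycle genes to -0.0079 without those cells. Sprouting genes moved to -0.56 and leukocyte adhesion genes to -0.0062 when thinned, and identity genes to -0.12 when recentred. The cause was not tested. Depth limits genes of few UMIs, and most of all WT diaphragm.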
